A study of Mus musculus with 6 samples.

Results

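Of 10 peroxide defence enzymes 9 were measured in mouse pancreatic islets with and without Vhlh in beta cells. Catalase was the 1 whose knockout signals all lay above the control signals, as they did for 3.98% of all genes tested. Its level was 1.89-fold higher in knockouts, a difference that did not pass the test over all genes. Of the other 8 genes 0 passed either, where 0.0172% of all genes tested passed. The 10 genes are catalase (Cat), the superoxide dismutases Sod1 and Sod2, the glutathione peroxidases Gpx1, Gpx3 and Gpx4, the peroxiredoxins Prdx1, Prdx2 and Prdx3, and thioredoxin reductase 1 (Txnrd1). They were taken by name: every probe set that the platform annotation gives to exactly 1 of these symbols was used, which gave 21 probe sets for 9 genes out of 18193 genes on the array. Prdx1 is not reported, because its 5 probe sets are annotated to Gm21399 as well. All 9 genes were bright enough to test, among 11609 genes, and so were 19 of the 21 probe sets.

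Isolated islets of 3 control and 3 knockout samples were hybridised to Affymetrix mouse arrays, 1 array each. Values are MAS5 signals, the summary of the probes for a transcript on a linear scale, brought to the same trimmed mean on every array; differences are knockout minus control in log2 signal. All 6 samples belong to a model in which Cre recombinase under a rat insulin promoter (RIP2-Cre) deletes the floxed alleles, Vhlh(fl/fl), in beta cells; the labels do not say which of these alleles the controls carried. In both genotypes number 01 came from male mice of 26 weeks, number 02 from female mice of 20 weeks and number 03 from male mice of 18 weeks. The design text names 3 batches of islets per genotype. The p-values of the main fit thus measure the spread between batches, which also differ in age and recorded sex. Where the number is used as a block, they measure the spread of same-numbered differences. How many animals each batch held is not stated. Only beta cells are targeted, while islets also hold other endocrine, vascular and stromal cells with the gene intact. Vhlh (Vhl in the annotation), the factor that marks hypoxia-inducible factor (HIF) for degradation, had signals of 457, 639 and 839 in controls and 344, 358 and 467 in knockouts, a log2 difference of -0.70 that did not pass (limma, adjusted p 0.9998). The position of these probe sets relative to the deleted part was not analysed here.

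Superoxide dismutases turn superoxide, which leaks from respiration, into hydrogen peroxide. Catalase breaks hydrogen peroxide down without a reductant, mainly in peroxisomes, whereas glutathione peroxidases and peroxiredoxins reduce peroxides with electrons from glutathione or thioredoxin, and thioredoxin reductase restores thioredoxin with NADPH. Islets are known for low catalase and glutathione peroxidase activity compared with liver.

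Promoter windows of 300 bases around the annotated start are shown for 3 of the genes, since HIF is the factor that Vhl controls and NRF2 is the factor best known for peroxide defence genes, with the window of Ldha, a HIF-induced lactate dehydrogenase gene, for comparison. They are RefSeq sequences of build GRCm38.p6, read 5′ to 3′ on the gene's strand, and capitals mark the motifs searched on both strands: ACGTG and GCGTG, the core of HIF sites, and TGACNNNGC, an antioxidant response element to which NRF2 binds. The Cat window lies at chr2:103485104-103485403 (minus strand), that of Sod1 at chr16:90220512-90220811 (plus), that of Gpx1 at chr9:108338830-108339129 (plus) and that of Ldha at chr7:46845554-46845853 (plus).
Cat: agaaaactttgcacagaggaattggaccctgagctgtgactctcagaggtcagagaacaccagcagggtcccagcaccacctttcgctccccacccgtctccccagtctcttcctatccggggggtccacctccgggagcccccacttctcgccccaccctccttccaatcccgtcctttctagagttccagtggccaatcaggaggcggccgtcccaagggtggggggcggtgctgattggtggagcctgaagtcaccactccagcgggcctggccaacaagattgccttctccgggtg
Sod1: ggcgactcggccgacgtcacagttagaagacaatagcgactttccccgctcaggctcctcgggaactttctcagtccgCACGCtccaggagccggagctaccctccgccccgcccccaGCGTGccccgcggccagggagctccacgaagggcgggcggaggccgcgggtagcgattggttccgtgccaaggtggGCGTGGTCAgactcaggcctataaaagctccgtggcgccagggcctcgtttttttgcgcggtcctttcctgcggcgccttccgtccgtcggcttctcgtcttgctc
Gpx1: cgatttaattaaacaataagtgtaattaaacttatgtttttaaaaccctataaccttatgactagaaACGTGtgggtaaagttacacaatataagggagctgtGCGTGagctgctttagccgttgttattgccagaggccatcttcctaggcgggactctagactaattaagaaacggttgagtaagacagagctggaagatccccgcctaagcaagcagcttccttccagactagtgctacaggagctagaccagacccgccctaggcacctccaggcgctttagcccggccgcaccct
Ldha: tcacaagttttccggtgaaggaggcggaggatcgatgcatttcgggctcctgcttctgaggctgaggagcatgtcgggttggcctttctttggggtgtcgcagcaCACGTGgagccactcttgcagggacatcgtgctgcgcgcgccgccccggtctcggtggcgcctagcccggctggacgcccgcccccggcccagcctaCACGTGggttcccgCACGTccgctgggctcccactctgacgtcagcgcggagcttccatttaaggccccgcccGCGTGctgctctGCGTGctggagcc

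The Cat window held none of the 3 motifs. In the Sod1 window there were 3 matches to GCGTG and 1 to TGACNNNGC, the latter overlapping a GCGTG match. That of Gpx1 had 1 match to ACGTG and 1 to GCGTG, and that of Ldha had 5 to ACGTG, where a CACGTG counts on both strands, and 2 to GCGTG. All 10 genes, Prdx1 included, matched the table, with 15 windows in all (4 for Gpx4 and 3 for Txnrd1). GCGTG was in 11 of the 15 windows, some of which overlap, and ACGTG in 1 of the 15, that of Gpx1. Counted by gene, 7 of the 10 had ACGTG or GCGTG in any window, and 6 had GCGTG in the first window. Over all 32851 windows of this length the share with ACGTG or GCGTG was 43.8%. It was 19.6% with ACGTG and 32.4% with GCGTG, where a window with both counts in each, and 12.4% with TGACNNNGC. TGACNNNGC occurred in 3 of the 15 windows, from 3 of the 10 genes (Sod1, Prdx1 and Txnrd1). Base composition varied among the windows: the GC content of the 15 windows ran from 47.0% for Gpx1 to 68.7% for Prdx2, and the median over all windows was 52.7%. These are letter matches in 1 window per start and say nothing of binding.

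Whole islets were measured, so fewer cells of a type and less RNA per cell cannot be told apart in any of the values. The 12 tested beta-cell markers had 8 below 0, a median log2 difference of -0.22 and summed signals of 162593 to 207082 in controls and 128424 to 210930 in knockouts. Those of alpha, delta and PP cells had 8 of 8 above 0, a median of 0.27 and sums of 146280 to 163229 and 139853 to 196831. Acinar markers set knockout 03 apart, with a sum of 13211 where the other 5 arrays had 132728 to 787145; the list's 17 genes were all below 0, with a median log2 difference of -1.08 that was 0.89 without that array. Matrix and fibroblast genes were above 0 for 17 of 17, with sums of 6067 to 10459 in controls and 9397 to 30312 in knockouts. Endothelial markers (15 of 15 above 0, 10628 to 11392 against 13444 to 18048) had sums that did not overlap between genotypes. Neural markers had 8 of 9 above 0 and sums of 6805 to 7665 against 9830 to 11562, most of it Ncam1, which endocrine cells also express; without Ncam1 the sums were 1211 to 2527 against 1984 to 5113 and overlapped. Duct markers had 6 of 9 above 0 and sums of 19251 to 33602 against 22439 to 38058. Among the 6, Sox9 had signals of 20.9 to 99.7 in controls and 119 to 140 in knockouts. It was bright enough to test only through the 3 knockout arrays, so its place above 0 follows from the filter. Of 7 measured erythroid markers 0 were bright enough to test, with sums of 357 to 630.4 against 258 to 517. No marker was at 0 on any array.

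Compared between genotypes, 0 of the 9 genes passed the threshold (limma with Benjamini-Hochberg adjustment over all genes, adjusted p under 0.05), where 2 of 11609 genes, or 0.0172%, passed. With the replicate number as a block 0 of the 9 passed as well, against 6 genes or 0.0517% of all. At an unadjusted p under 0.05 the count was 1 of the 9, Cat, against 2.58% of all genes tested. Knockout signals lay above all control signals for 1 of the 9 genes, again Cat, against 3.98% of all, and below all control signals for 0 of the 9, against 2.77%. Within same-numbered arrays the knockout was higher in all 3 for 2 of the 9, against 1586 of the 11609 genes. It was lower in all 3 for 0 of the 9, against 1311 of the 11609. Of the 9 genes 6 were above 0 and 3 below, with a median log2 difference of 0.12, and the median over all genes was -0.00028. Differences between the 9 genes were not tested.

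Read one by one, 0 of the 19 tested probe sets of these genes passed, against 0.0201% of the 19853 probe sets tested. Knockout signals were above all control signals for 1 of the 19, against 3.44%, and below for 0 of the 19, against 2.98%. Same-numbered differences were all above 0 for 2 of the 19 and all below 0 for 3, against 2456 and 2298 of the 19853. The median size of the log2 difference, sign aside, was 0.23 over the 9 genes and 0.21 over all genes.

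Cat, the enzyme that splits hydrogen peroxide into water and oxygen, had signals of 666, 688 and 748 in controls and of 1249, 1172 and 1580 in knockouts through probe set 1416429_a_at. The lowest knockout signal was well above the highest control signal, and the control values were close together. Mean log2 signals of 9.45 ± 0.09 (SD, n = 3) for the controls and 10.37 ± 0.23 (SD, n = 3) for the knockouts gave a 1.89-fold higher level in the knockouts. This is 0.92 in log2 (SE 0.26), and the 95% interval ran from 0.33 to 1.50. By p it ranked 48 among 11609 genes (unadjusted limma p 0.00615), which gave an adjusted p of 0.9998. With the replicate block the standard error was 0.22 and the adjusted p 0.722. Within same-numbered arrays the knockout was higher by 0.91, 0.77 and 1.08 for numbers 01, 02 and 03.

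A second probe set of Cat, 1416430_at, did not separate the groups. Its signals were 462, 535 and 115 in controls and 220.5, 1119 and 448 in knockouts. They overlapped, control 03 was the lowest and knockout 02 the highest, and the spread within a group was wide (SD of 1.22 in controls and 1.17 in knockouts, log2, n = 3 each). The log2 difference was 0.65 (SE 0.70, 95% interval from -0.92 to 2.22, limma adjusted p 0.99996), and the difference was -1.07, 1.07 and 1.96 in numbers 01, 02 and 03. Without control 03 it was -0.050. The higher Cat level thus rests on 1 of its probe sets; with the mean of both the log2 difference was 0.78 (adjusted p 0.9997).

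The array with the highest Cat signal, knockout 03, also had the highest sum of matrix and fibroblast genes, 30312, and the endothelial sums separated the genotypes as Cat did; their part in the Cat difference was not tested. Without knockout 03 the Cat difference was 0.79, and with acinar markers as a covariate it was 0.85.

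**Figure D1:**
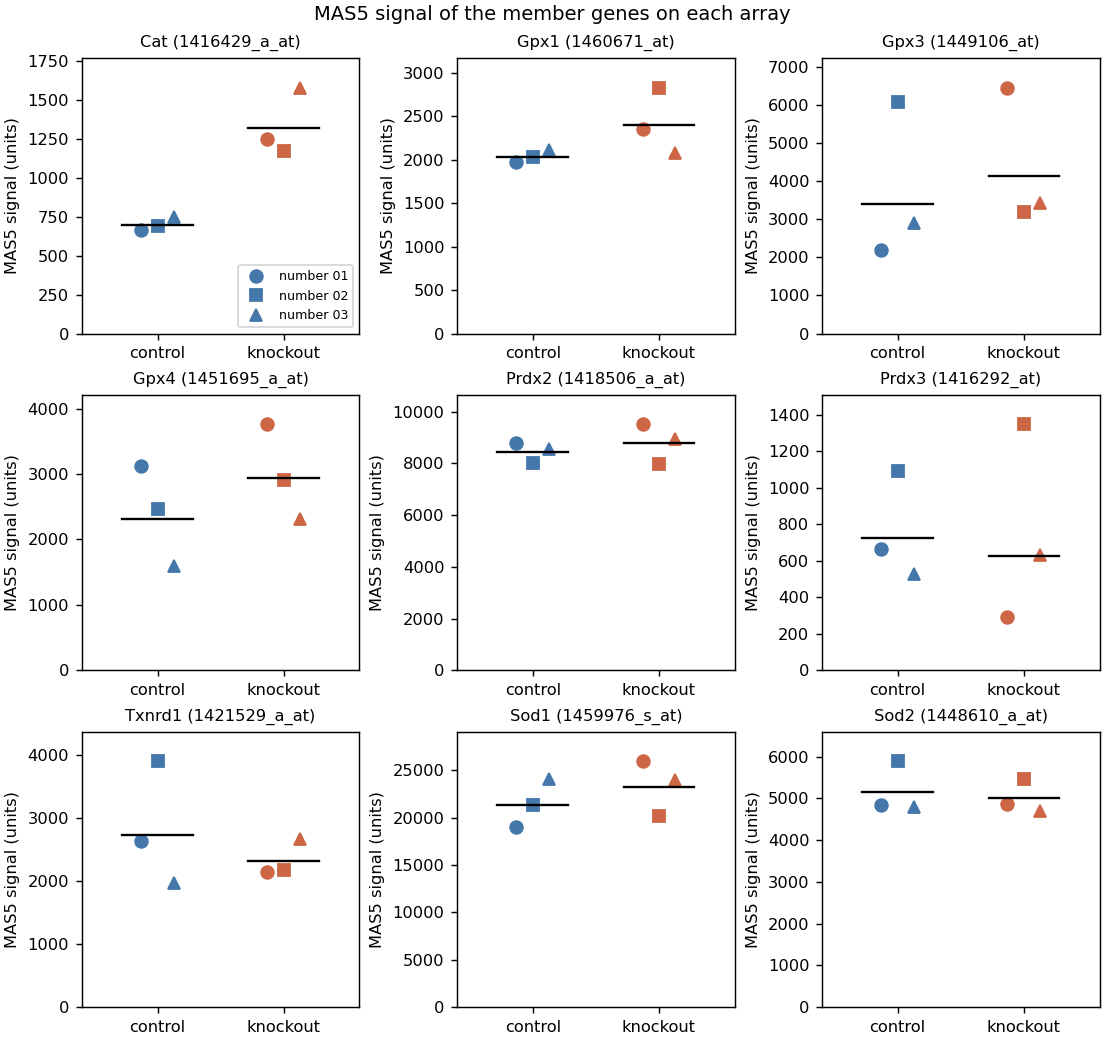
MAS5 signal (linear scale, from 0) of the 9 measured genes in control and Vhlh knockout islets, 1 panel per gene with its own axis; each point is 1 array, its shape the replicate number, and the line the geometric mean of 3 arrays. The 3 Cat signals in knockouts, 1172 to 1580, all lie above the control signals of 666 to 748. Signals of the other 8 genes overlap between groups. Over all genes tested, knockout signals lay above all control signals for 3.98% and below for 2.77%.

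The superoxide dismutases were measured at nearly equal levels in both genotypes. Sod1, the copper-zinc enzyme of the cytosol, had signals of 19022, 21279 and 24072 in controls and 25962, 20194 and 23936 in knockouts through 1459976_s_at. These ranges overlapped, with a log2 difference of 0.12 (SE 0.21, 95% interval from -0.35 to 0.60). The 3 further bright probe sets of Sod1 differed by 0.07, 0.18 and -0.12, with intervals that all included 0. Its remaining probe set, 1447761_x_at, had signals of at most 60.9, below the array medians, and was not tested.

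Sod2, the manganese enzyme of the mitochondrial matrix, had signals of 4836, 5895 and 4786 in controls and 4867, 5469 and 4693 in knockouts through 1448610_a_at. Same-numbered arrays were close, with number 02 the highest in both genotypes. The log2 difference was -0.04 (SE 0.24, 95% interval from -0.57 to 0.49). Its other 3 probe sets differed by -0.21, -0.06 and -0.43. In the first and last of these each knockout was below the control of its number (3 of 3), as in 2298 of the 19853 probe sets tested. For the bright 1417193_at these differences were -0.35, -0.17 and -0.10 in numbers 01, 02 and 03, with signals of 5061, 5589 and 3062 in controls and 3961, 4972 and 2862 in knockouts (SE 0.33). For 1417194_at the signals, 117 to 146 in controls and 77.7 to 131 in knockouts, were near the array medians (SE 0.47). Both probe sets overlapped between groups and neither passed (limma, adjusted p 0.99996).

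Among the glutathione peroxidases, which are selenoproteins, Gpx1, the main cytosolic form, had signals of 1971, 2027 and 2111 in controls and 2357, 2832 and 2075 in knockouts. The controls varied little (SD of 0.05 in log2, n = 3), and knockouts 01 and 02 were above them while knockout 03 was not. The log2 difference was 0.24 (SE 0.25, 95% interval from -0.33 to 0.81). Without knockout 02 it was 0.12.

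Gpx3, the secreted form, had signals of 2203, 6068 and 2908 in controls and 6453, 3179 and 3417 in knockouts. One array of each genotype, control 02 and knockout 01, stood well above the others. The log2 difference of 0.28 (SE 0.42, 95% interval from -0.67 to 1.24) came from same-numbered differences of 1.55, -0.93 and 0.23, so the arrays did not agree on a direction. Without both arrays numbered 01 the value was -0.35, and without both numbered 02 it was 0.89.

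Gpx4, which reduces peroxides of membrane lipids, had signals of 3124, 2468 and 1589 in controls and 3761, 2903 and 2320 in knockouts through 1451695_a_at. The groups overlapped. Same-numbered differences were above 0 in 3 of 3, at 0.27, 0.23 and 0.55, as for 1586 of the 11609 genes tested. The log2 difference was 0.35 (SE 0.33, 95% interval from -0.39 to 1.09), with an SE of 0.21 and an adjusted p of 0.990 in the fit with the replicate block. The other probe set, 1456193_x_at, whose kind can bind related transcripts, had signals of 2824, 1943 and 3110 in controls and 8854, 1617 and 5135 in knockouts. Its difference of 0.70 (SE 0.55) was 0.16 without knockout 01.

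**Figure D2:**
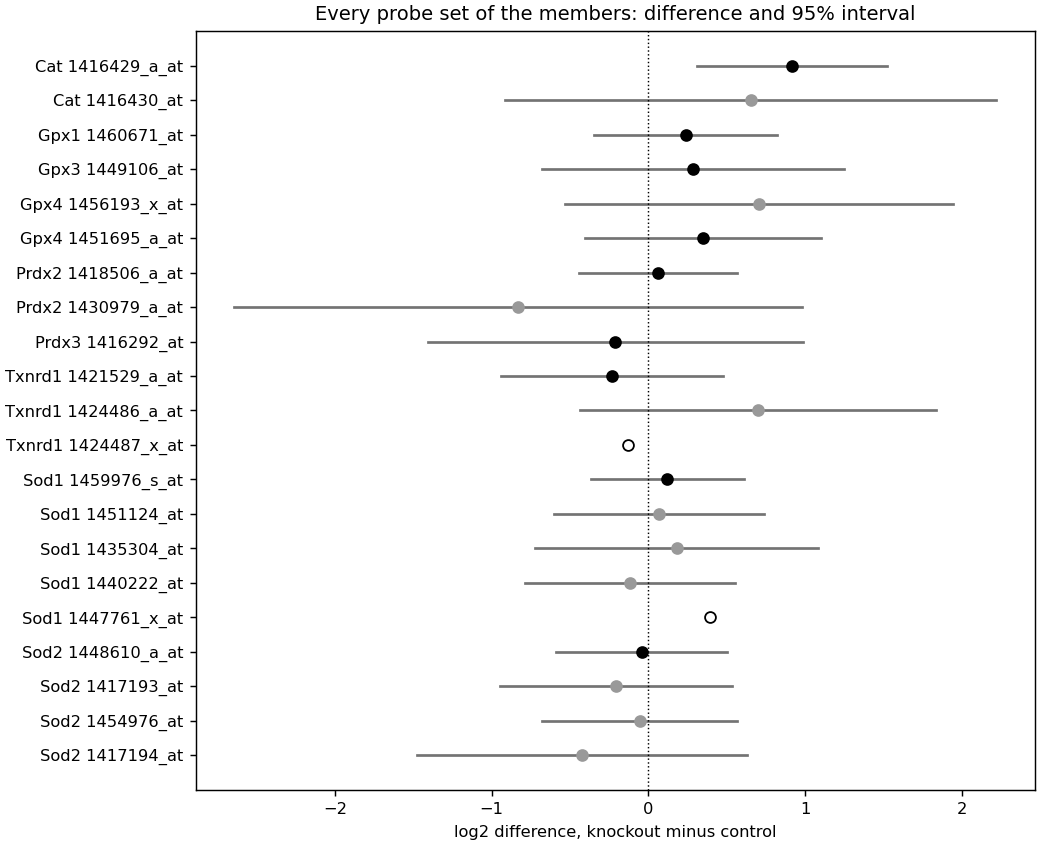
Log2 difference, knockout minus control, of all 21 probe sets of the 9 genes with the 95% interval of the limma fit over all probe sets; black points are the probe sets that stand for their gene, grey points the other tested ones and open points the 2 that were too dim to test. The interval of Cat 1416429_a_at lies above 0, and the other 18 intervals include 0.

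The peroxiredoxins reduce hydrogen peroxide through a reactive cysteine. Prdx2, a cytosolic form that is also abundant in red blood cells, had signals of 8776, 7996 and 8560 in controls and 9511, 7990 and 8943 in knockouts through 1418506_a_at. These were among the most even values of the 9 genes, with a log2 difference of 0.06 (SE 0.22, 95% interval from -0.43 to 0.55). The second probe set, 1430979_a_at, had signals of 1902, 971 and 969 in controls and 146, 1625 and 1331 in knockouts. Its difference of -0.83 (SE 0.80, 95% interval from -2.64 to 0.98) came from knockout 01, and without that array it was 0.28.

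Prdx3, the mitochondrial form, had signals of 664, 1093 and 529 in controls and 291, 1347 and 634 in knockouts. Number 02 was the highest in both genotypes, and knockout 01 was the lowest of all 6. The log2 difference was -0.21 (SE 0.53, 95% interval from -1.40 to 0.98), made of -1.19, 0.30 and 0.26 in numbers 01, 02 and 03. Without knockout 01 it was 0.35.

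Txnrd1, the cytosolic selenoprotein that recycles thioredoxin, had signals of 2634, 3901 and 1965 in controls and 2146, 2176 and 2671 in knockouts through 1421529_a_at. The knockouts lay inside the control range, with a log2 difference of -0.23 (SE 0.31, 95% interval from -0.93 to 0.46). A dimmer probe set, 1424486_a_at, had signals of 407, 339 and 104 in controls and 352, 505 and 345 in knockouts and went the other way by 0.70 (SE 0.50), a value that was 0.085 without control 03. The third, 1424487_x_at, was above the array median on 1 of 6 arrays and was not tested.

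**Figure D3:**
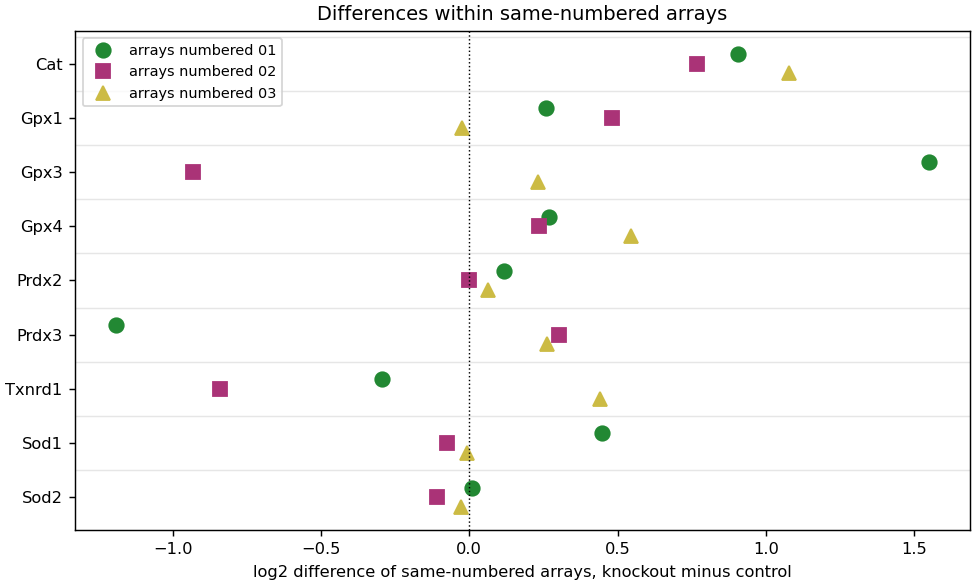
Log2 difference between the knockout and the control array of the same number (same age and recorded sex) for the 9 genes; shapes and colours mark numbers 01, 02 and 03. Cat and Gpx4 are above 0 in all 3, as are 1586 of the 11609 genes tested. Cat lies between 0.77 and 1.08, while Gpx3 runs from -0.93 to 1.55 and Prdx3 from -1.19 to 0.30.

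Of the related genes on 11 further lists of redox and peroxisome genes, 0 genes passed (limma, adjusted over all genes). The list of genes that HIF is known to induce is left aside here, but Ero1a is on that list and on 1 of the 11. At an unadjusted p under 0.05 there were 6 of the 125 different genes tested, or 4.80%, against 2.58% of all genes. These were Mgst1, Cyba and Aox1 higher and Gpx2, Pxmp4 and Amacr lower in knockouts. With the replicate block Prdx4 and Maff, higher, and Acaa1a, lower, were also under 0.05, with SEs of 0.22, 0.34 and 0.71. They did not pass (limma, adjusted p 0.877, 0.726 and 0.965). Of all 11609 genes 425 higher and 159 lower were under 0.05 with the block. The list medians given here rest on few genes and arrays: for 7 of the 11 lists the sign turned when 1 array was left out. Of the 2 tested peroxiredoxin-related genes, Prdx4, a peroxiredoxin of the endoplasmic reticulum, had signals of 2232, 4143 and 1047 in controls and 2982, 6897 and 2096 in knockouts (log2 difference 0.72, SE 0.56), and Srxn1, which repairs over-oxidised peroxiredoxins, differed by 0.053 (SE 0.28). Among the 3 other tested glutathione peroxidase and dismutase genes Gpx2, an epithelial glutathione peroxidase, had signals of 351, 564 and 510 in controls and 273, 202 and 341 in knockouts. All 3 knockout signals of Gpx2 were below the controls, a difference of -0.81 (SE 0.33, adjusted p 0.9998). Gpx8 differed by 0.64 (SE 0.52) and Ccs, the copper chaperone of Sod1, by 0.16 (SE 0.52).

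The thioredoxin and glutaredoxin list had 4 of 10 tested genes above 0 and a median log2 difference of -0.02, which was 0.22 without knockout 02. Txnrd3 differed by 0.39 (SE 0.34), thioredoxin itself, Txn1, by 0.27 (SE 0.24) and the mitochondrial glutaredoxin Glrx2 by 0.26 (SE 0.24); Glrx2 signals did not overlap, at 2829 to 3564 in controls and 3676 to 4328 in knockouts. Glutathione synthesis and recycling had 3 of 9 above 0 and a median of -0.07 (-0.26 without control 03 and 0.040 without knockout 03), with glutathione reductase, Gsr, at -0.71 (SE 0.40), Oplah at 0.52 (SE 0.61) and Chac2 at -0.19 (SE 0.41). Genes of NADPH supply had 3 of 7 above 0 and a median of -0.11 (0.12 without control 01), with the malic enzymes Me3 at -0.28 (SE 0.42) and Me2 at 0.23 (SE 0.38) and Pgd, of the pentose phosphate pathway, at 0.17 (SE 0.28).

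Of NRF2 and its targets 11 of 19 tested genes were above 0 and 8 below, with a median of 0.01 (-0.0016 to 0.15 with 1 array left out). The small Maf factor Maff differed by 1.39 (SE 0.72), the glutathione transferase Mgst1 by 0.81 (SE 0.35) and Akr1b8, an aldo-keto reductase, by 0.64 (SE 0.45). FOXO and PGC1 regulators had 6 of 11 above 0 and a median of 0.02 (-0.096 without control 02), with Foxo3 at 0.41 (SE 0.32), Ppargc1b at -0.36 (SE 0.38) and Nrf1 at 0.29 (SE 0.32). Selenoprotein synthesis, on which the glutathione peroxidases and Txnrd1 depend, had 7 of 11 below 0 and a median of -0.26, which was -0.0038 without control 03 and 0.056 without knockout 01. Its genes of lowest p were Sepsecs, which forms selenocysteine on its transfer RNA (-0.32, SE 0.28), the selenium carrier Selenop (-0.26, SE 0.34) and Sephs1 (0.18, SE 0.25).

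Catalase sits in peroxisomes, and of the other peroxisomal genes tested more were below 0 than above. Peroxisome assembly genes had 5 of 17 above 0 and a median log2 difference of -0.14, which was -0.0036 without knockout 01 and 0.024 without both arrays numbered 01. The membrane protein Pxmp4 had signals of 234, 227 and 400 in controls and 165, 117 and 145 in knockouts, which did not overlap (-0.97, SE 0.38), while the assembly factors Pex3 and Pex16 differed by -0.34 (SE 0.34) and 0.34 (SE 0.37). Peroxisomal enzymes had 10 of 25 above 0, a median of -0.07 (-0.22 without knockout 02 and -0.00058 without control 01) and differences from -1.72 to 0.16. Knockout signals lay below all control signals for 3 of the 25, against 2.77% of all genes: Amacr, a racemase of branched-chain fatty acids, Phyh, which oxidises phytanic acid, and Nudt7. Amacr had signals of 793, 447 and 420 in controls and 279, 373 and 92.0 in knockouts (-1.32, SE 0.52), and Phyh 3383, 3858 and 3803 against 2833, 3009 and 2716 (-0.37, SE 0.24). The difference of Acaa1a, a thiolase, was -1.72 (SE 0.93), with a control 03 signal of 10399 far above the other 5 arrays.

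Of 12 tested enzymes that form peroxide or superoxide 9 were above 0, with a median of 0.12 (0.0013 without control 03 and 0.28 without knockout 03), and knockout signals lay above all control signals for 3, against 3.98% of all genes. Cyba, a subunit of NADPH oxidases, had signals of 131, 103 and 81.3 in controls and 213, 247 and 253 in knockouts (1.20, SE 0.39, adjusted p 0.9998). Aox1, aldehyde oxidase, had 299, 316 and 549 in controls against 687, 641 and 806 in knockouts (0.92, SE 0.32), and Ero1a, an oxidase of the endoplasmic reticulum that HIF induces, 3694, 3528 and 2463 against 3959, 4381 and 4919 (0.47, SE 0.27). Cyba is also expressed by leukocytes, whose markers had summed signals of 5090 to 9870 in controls and 5990 to 9559 in knockouts, with 8 of 11 tested markers above 0; their part in the Cyba values was not tested.

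For scale, the list of genes that HIF induces had the highest median. On it 21 of 22 tested genes were above 0, with a median log2 difference of 1.63, and Ak4, a mitochondrial adenylate kinase, passed (6.31, SE 0.55, adjusted p 0.0103). Ak4 signals were 18.1, 72.1 and 16.7 in controls, below the array medians, and 2471, 1763 and 2471 in knockouts. It was bright enough to test only through the 3 knockout arrays, as were Adm and Egln3 of this list. The size of such a difference thus rests on dim control signals. The glycolytic genes Ldha and Pgk1 differed by 2.95 (SE 0.37, adjusted p 0.0606) and 1.87 (SE 0.34, adjusted p 0.282), and passed with the replicate block (adjusted p 0.0476 and 0.0432). The Cat difference of 0.92 was below that list's median but above 4 of its 22 genes: Ero1a (0.47), Ndrg1 (0.35), Kdm3a (0.34) and Vegfa, whose knockout signals all lay below the controls (-0.46, SE 0.27), and the other 8 genes, at -0.23 to 0.35, lay within the range of the remaining redox lists.

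**Figure D4:**
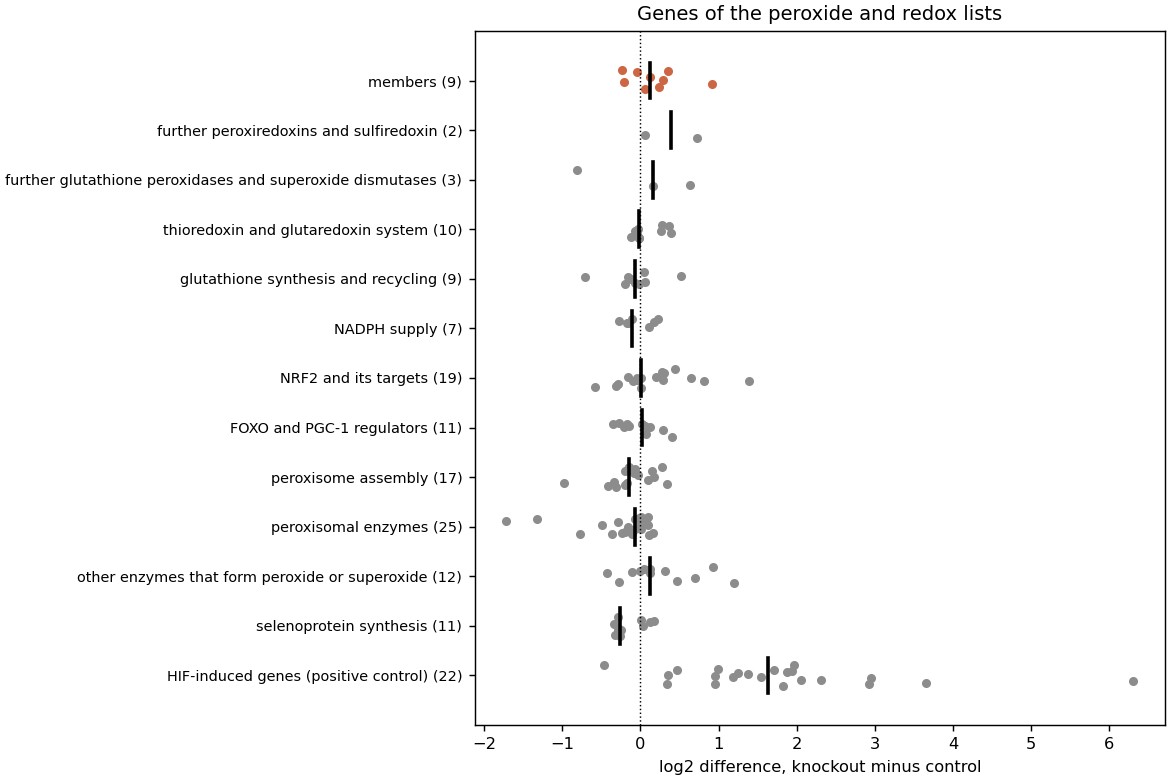
Log2 difference, knockout minus control, of each tested gene (points) on the lists of peroxide, redox and peroxisome genes, with the number of genes in brackets and the list median as a vertical line; vertical scatter has no meaning. The 9 measured genes, in orange, centre on 0.12 with Cat at 0.92, and the median of the HIF-induced list, 1.63, is the highest shown.

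The genes whose pattern over the 6 arrays was most like that of Cat were found by the root mean square distance between mean-centred log2 signals, among all 11609 genes. They were Nudt1 (distance 0.0886), Lmo2 (0.125), Nexmif (0.126), Gab1 (0.126) and Kazald1 (0.132). Nudt1 encodes the hydrolase that removes oxidised nucleotides from the nucleotide pool, and its signals were 219, 222 and 243 in controls and 358, 384 and 451 in knockouts (log2 difference 0.80, SE 0.29, adjusted p 0.9998). Lmo2, a transcriptional cofactor of blood and endothelial cells, had 254, 278 and 331 against 466, 444 and 743. The signaling adaptor Gab1 had 365, 375 and 361 against 603, 663 and 700.2. All 5 were higher on every knockout array than on any control array, which follows from likeness to Cat and is no separate evidence.

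**Figure D5:**
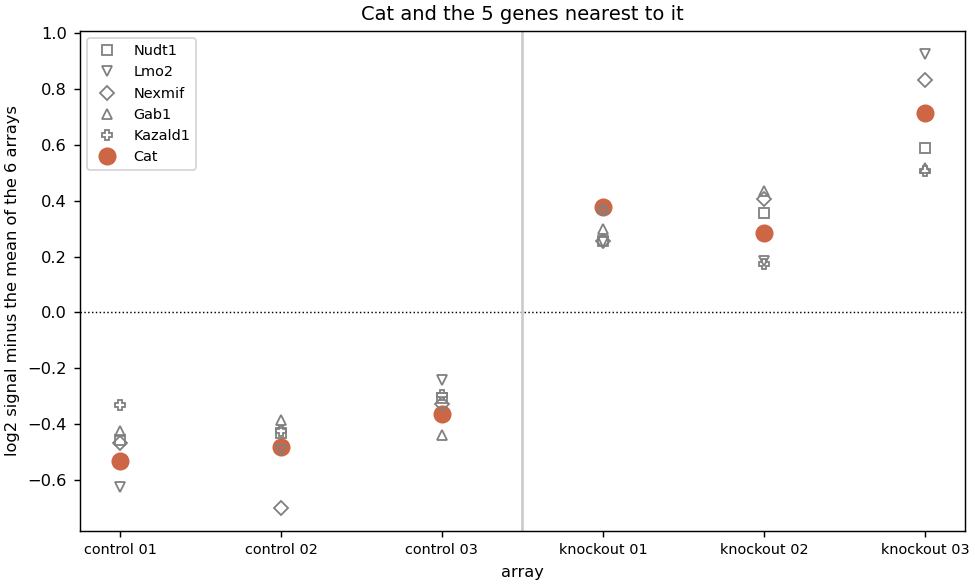
Log2 signal minus the mean of the 6 arrays for Cat (filled) and the 5 genes of smallest distance to it (open shapes), by array; controls are left and knockouts right of the grey line. Cat lies between -0.53 and -0.36 on the controls and between 0.28 and 0.72 on the knockouts.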

How the data were processed

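RNA of isolated islets was measured on 6 arrays. Per the labels, 30 ng of total RNA was amplified by the Two-Cycle cDNA method before labelling. What the authors deposited is 1 linear MAS5 intensity per probe set and array; the submitters' processing notes name GCOS 1.4 and MAS5. The 2% trimmed mean was 500.003 on every array, and no further normalization was recorded. Detection calls were not used here, and precision is limited by how few arrays there are.

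Of 45101 probe sets, 64 controls were left out; the annotation gave 34945 exactly 1 symbol, 932 several and 9160 none. Symbols were checked through Entrez identifiers in a RefSeq table (GRCm38.p6; 34741 matched, 0 changed). Each gene was represented by the probe set with the highest log2 mean over the arrays, avoiding the _x_at kind where possible, and was tested if above the array median (101.9 to 122.7) on at least 3 of 6 arrays. Log2 signals, with nothing added, were tested with limma 3.58.1 under R 4.3.3 (lmFit, eBayes with an intensity trend), adjusted over all genes tested, checked on simulated data. Every probe set was also fitted on its own. Errors are moderated standard errors.

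Both genotypes carry numbers 01 to 03 with equal age and recorded sex. Deviations from group means over 11609 genes correlated at 0.15, 0.42 and 0.43 in same-numbered arrays. All were above 0.1, so the numbers were taken to pair the arrays. Control 01 with knockout 02 reached 0.14. The main fit does not use this pairing, and standard errors, intervals and p-values are from it unless the block is named. At an unadjusted limma p under 0.05 the block fit had 425 genes higher and 159 lower in knockouts. In the main fit these were 231 and 69.

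The 10 genes, the lists and the tests were chosen with earlier results of these data known. Named genes are the 10 genes, Vhl, Ak4, Ldha, Pgk1, and the 5 nearest to Cat. Those of each list that passed or the up to 3 of lowest p are named too. Nudt7, Ncam1, Sox9, Adm, Egln3, Ndrg1, Kdm3a and Vegfa were named after their values were seen. Protein sequences were not used here. The 18 alternative settings varied the filter, probe set choice, scaling, pseudocount, weights, covariate, block and arrays used.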

Additional observations from a re-analysis of the deposited data

How the results depend on the processing

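Under all 18 alternative settings 0 of the 9 genes and 0 of the other redox and peroxisome genes outside the HIF list passed, and under the 17 that treat probe sets singly 0 of the tested probe sets of these genes passed. The Cat log2 difference was positive in all 18, at 0.78 with the mean of both probe sets and from 0.79 to 1.00 in the 17 settings with 1416429_a_at alone, with adjusted p from 0.717 to 0.9999; Gpx1 (0.12 to 0.37) and Gpx4 (0.08 to 0.57) also kept their direction. The count of genes past the threshold, 2, became 6 with the replicate block, 4 with a pseudocount of 50, 1 with the stricter filter, 0 to 5 when 1 array was left out (0 without knockout 01 or 03, 1 without control 01, 5 without control 02), 0 without both arrays numbered 01 or both numbered 03, and 1 without both numbered 02. No gene or probe set of the 9 genes was called in the paired fit.

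Signs of other values turned, including differences as large as that of Prdx2 1430979_a_at (-0.83). Averaging the probe sets of each gene put Prdx2 at -0.39 and Txnrd1 at 0.11. With array weights Sod2 1454976_at was at 0.056, and with the acinar covariate Sod1 1451124_at was at -0.025. Without both arrays numbered 01, Sod1 was at -0.042, Gpx3 at -0.35, Prdx3 at 0.28, Sod1 1451124_at at -0.16, Sod1 1435304_at at -0.23 and Prdx2 1430979_a_at at 0.60. Without both numbered 02 Txnrd1 was at 0.073, and without both numbered 03 Cat 1416430_at was at -0.00042 and Sod2 1454976_at at 0.13. Leaving out 1 array gave ranges of -0.040 to 0.70 for Gpx3, -0.11 to 0.055 for Sod2, -0.76 to 0.35 for Prdx3, -0.47 to 0.027 for Txnrd1, -0.050 to 1.21 for Cat 1416430_at, -0.11 to 0.35 for Sod1 1451124_at, -0.22 to 0.58 for Sod1 1435304_at, -0.23 to 0.014 for Sod1 1440222_at, -0.47 to 0.0042 for Sod2 1417193_at, -0.15 to 0.11 for Sod2 1454976_at and -1.46 to 0.28 for Prdx2 1430979_a_at. The causes were not tested. Each group has 3 arrays, which limits the precision, and the intervals of the other 8 genes include 0.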
